A study of Mus musculus with 4 samples.

Results

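Integrins are the receptors with which cells hold on to the extracellular matrix and to each other. The genes described here are the integrin subunits, the laminin chains and 12 matrix glycoproteins, measured in the liver of Rap1-deficient mice and of wild-type mice. They were taken by name: every *Itga* and *Itgb* subunit, every *Lama*, *Lamb* and *Lamc* chain with a number, and *Fn1*, *Hspg2*, *Bgn*, *Dcn*, *Lum*, *Nid1*, *Nid2*, *Agrn*, *Thbs1*, *Thbs2*, *Sparc* and *Fbn1*. Of 49 such genes in the RefSeq table used for naming, *Itga10* and *Itgae* had no named probe. The other 47 had 63 probes, out of 19752 genes with a named probe. They were 16 integrin alpha subunits with 22 probes, 8 integrin beta subunits with 11, 11 laminin chains with 13 and 12 glycoproteins with 17.

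Total liver RNA of 3 replicate pairs was compared on 4 arrays of 2 colours, and the labels give 30 weeks of age for both genotypes. A different age stands in the paper for these livers. The Rap1-deficient mice (Rap1 -/-) came from a whole-body deletion, made by crossing floxed Rap1 mice with mice whose cre was driven by the EIIa promoter, an early embryonic driver that was later bred out. The wild-type mice shared the mixed background of C57BL6 (90%) and 129SV (10%). On replicates 1, 2 and 3 the Rap1-deficient liver was labelled with Cy5 and the wild-type liver with Cy3, and a further array, numbered 1 in the labels and called the swap array here, had the dyes swapped. Its sign was turned, so that every log2 ratio here is Rap1-deficient over wild-type, and it was averaged with replicate 1.

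An integrin is a pair of an alpha and a beta subunit, and the pair decides which ligand is bound. *Itgb1* is the beta subunit with the most partners and forms the collagen, laminin and fibronectin receptors of most adherent cells, whereas *Itgb2* and *Itgb7* belong to leukocytes. Laminins are trimers of an alpha, a beta and a gamma chain and build basement membranes together with nidogens, perlecan (*Hspg2*), agrin and type IV collagen. Hepatocytes face the blood across the space of Disse, which has matrix but no continuous basement membrane, while larger vessels, bile ducts and nerves of the liver have one. In whole tissue, more cells of a type and more RNA per cell cannot be told apart.

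The deleted gene gave the check of the labels. Rap1 is the telomere protein gene *Terf2ip*, which is not the small GTPase gene *Rap1a* or *Rap1b*. A *Terf2ip* probe (A_52_P381806) had log2 ratios of -1.74, -1.92 and -1.91 in replicates 1, 2 and 3 and of -1.68 on the swap array (adjusted p = 0.00859), and its signal stood clear of background on 0 of 4 arrays in the Rap1-deficient channel, against 4 of 4 in the wild-type channel. The other *Terf2ip* probe (A_55_P2094079) was higher in Rap1-deficient liver, with a log2 fold change of 0.96 ± 0.09 (SE, adjusted p = 0.0329). The sources used here do not place these probes relative to the deleted part. Over all tested probes the swap array stood apart: its ratios correlated with those of replicates 1, 2 and 3 at r = -0.24, -0.29 and -0.27, while these 3 correlated with each other at 0.64 to 0.85. Its ratios also had an SD of 0.24, against 0.48 to 0.51. The share of spots well above background was 50.1% to 56.4% per channel.

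Genes that passed the test are therefore described with the ratio on the swap array and with a second fit that holds a dye term. The second fit gives an estimate of the genotype difference that is free of a constant dye effect. It counts the swap array as separate from replicate 1. Since that array alone has its dye orientation, it is fitted exactly, and the residual spread comes from replicates 1, 2 and 3. A p-value with the dye term thus does not measure whether both dye orientations gave like ratios. One more feature of the arrays bears on every pair. Over replicates 1, 2 and 3 the channel levels of the 42 tested genes had a median SD of 0.20 on the log2 scale in Rap1-deficient liver and of 0.06 in wild-type liver, and 38 of 42 (90.5%) varied more in Rap1-deficient liver. Over all 13167 tested genes the medians were 0.15 in Rap1-deficient and 0.06 in wild-type liver, with 84.3% varying more in Rap1-deficient liver. For 10 markers of Kupffer cells, the resident macrophages, they were 0.85 in Rap1-deficient and 0.05 in wild-type liver. The labels name 3 biological replicates per genotype and do not say whether each array carried another wild-type liver, and whether they were separate wild-type livers was not tested. A p-value of the fit without the dye term measures the spread of the ratios between these pairs, and most genes varied more in the Rap1-deficient channel. Replicate 1 enters as the mean of both dye orientations, while replicates 2 and 3 have a single orientation. That spread thus mixes any dye effect with differences between livers, and the fold change keeps part of a dye effect.

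The promoters of the genes that carry the results are shown with 2 motifs, the GC box, which transcription factors of the Sp family bind, and the hexamer of the telomere repeat, since Rap1 is a telomere protein. The 250 bases before a RefSeq start on GRCm38.p6 are given and read 5′ to 3′ on the gene's own strand. Capitals mark GGGCGG or its reverse complement CCGCCC, and TTAGGG or its reverse complement CCCTAA. *Itgb1*, *Itga1* and *Itgav* encode receptor subunits, and *Hspg2* and *Bgn* matrix proteins, all 5 called higher with and without the dye term. *Itgax* encodes a leukocyte subunit whose ratios set the pairs apart.
Itgb1: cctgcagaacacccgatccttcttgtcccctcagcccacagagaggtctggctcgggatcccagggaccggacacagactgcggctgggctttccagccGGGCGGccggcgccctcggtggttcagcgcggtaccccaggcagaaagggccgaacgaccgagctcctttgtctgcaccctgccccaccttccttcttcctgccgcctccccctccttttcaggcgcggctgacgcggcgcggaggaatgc
Itga1: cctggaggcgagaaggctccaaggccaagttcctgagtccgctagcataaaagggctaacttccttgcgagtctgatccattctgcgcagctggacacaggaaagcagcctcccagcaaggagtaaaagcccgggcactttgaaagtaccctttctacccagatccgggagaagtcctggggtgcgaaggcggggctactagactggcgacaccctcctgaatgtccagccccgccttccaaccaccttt
Itgav: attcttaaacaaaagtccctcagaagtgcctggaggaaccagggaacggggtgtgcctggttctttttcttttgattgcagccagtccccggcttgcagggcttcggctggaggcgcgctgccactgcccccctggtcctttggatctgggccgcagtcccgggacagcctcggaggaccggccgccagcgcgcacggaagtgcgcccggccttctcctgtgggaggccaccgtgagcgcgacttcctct
Hspg2: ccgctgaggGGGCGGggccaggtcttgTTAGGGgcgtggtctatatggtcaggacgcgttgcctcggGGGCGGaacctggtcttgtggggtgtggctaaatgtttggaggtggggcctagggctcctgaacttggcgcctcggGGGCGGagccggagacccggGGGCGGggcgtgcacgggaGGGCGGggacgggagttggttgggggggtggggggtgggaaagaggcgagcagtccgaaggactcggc
Bgn: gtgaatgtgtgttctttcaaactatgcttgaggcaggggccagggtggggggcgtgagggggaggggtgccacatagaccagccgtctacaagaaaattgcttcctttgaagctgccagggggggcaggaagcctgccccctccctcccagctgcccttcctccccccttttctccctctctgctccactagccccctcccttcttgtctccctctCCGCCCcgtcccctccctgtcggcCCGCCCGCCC
Itgax: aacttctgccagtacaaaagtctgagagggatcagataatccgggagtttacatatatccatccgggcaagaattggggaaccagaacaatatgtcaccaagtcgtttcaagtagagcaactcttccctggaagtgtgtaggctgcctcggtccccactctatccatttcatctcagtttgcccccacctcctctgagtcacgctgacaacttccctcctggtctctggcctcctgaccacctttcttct
The starts used for *Itgav*, *Hspg2* and *Itgax* lie downstream of the outermost boundary that RefSeq gives these genes, by 2094, 52 and 24 bases, so their windows reach into the gene or lie inside it. All 6 windows are chr8:128685404-128685653 (plus strand) for *Itgb1*, chr13:115101965-115102214 (minus strand) for *Itga1*, chr2:83724147-83724396 (plus strand) for *Itgav*, chr4:137468553-137468802 (plus strand) for *Hspg2*, chrX:73483351-73483600 (plus strand) for *Bgn* and chr7:128129300-128129549 (plus strand) for *Itgax*. The GC box motif occurred 5 times before *Hspg2*, 3 times before *Bgn*, of which 2 overlap, and once before *Itgb1*, and it was absent from the windows of *Itga1*, *Itgav* and *Itgax*. The telomere hexamer was found among these 6 in the *Hspg2* window alone. RefSeq windows were matched for 29 of the 47 genes. The GC box motif was in those of 13 genes, and it was in 32.7% of all 32851 windows. The telomere hexamer was in those of 2 genes, *Hspg2* and *Itgb5*, and in 9.32% of all windows. A match is a run of letters and was not tested as a binding site.

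Of the 63 probes 51 passed, and of the 47 genes 42 had a probe above the filter on dim spots, and each was represented by its tested probe of highest mean intensity. *Itga2*, *Itga2b*, *Itgad*, *Itgb6* and *Itgb8* were too dim to test, and all but *Itga3* and *Thbs2* of the 42 were well above background on all 4 arrays in both genotypes. A gene was called where its adjusted p, from limma over 27513 probes, was under 0.15, the false discovery rate used in the study. By that rule 13 of 42 genes (31%) were higher in Rap1-deficient liver, 2 (4.76%) were lower and 27 did not pass. Over all 13167 tested genes, 18% were higher and 16.1% lower. In either direction 34.1% of all genes were called, as were 34.5% of all tested probes. By role, 5 higher and 2 lower genes were among 13 integrin alpha subunits, 2 and 0 among 6 beta subunits, and 3 and 0 among 12 glycoproteins. The median log2 fold change was 0.20 over the 42 genes and 0.00489 over all genes. With the dye term 7 of the 42 genes were called higher, all of them among the 13, where 3.71% of all genes were. Among the 7 were *Itga1*, *Itgav*, *Itgb1*, *Lamc3*, *Bgn* and *Hspg2*. None of the 42 was called lower with it, where 2.73% of all genes were. In limma fits without replicate 2, or with the swap array counted as a replicate of its own, 0 of the 42 genes were called, against 0.0304% and 0.342% of all genes in either direction, and 10 and 11 of the 42 had an unadjusted p under 0.05. Without replicate 3 only *Itga1*, *Itgam*, *Itgav*, *Itgb1*, *Bgn* and *Hspg2* of the 15 were called, where 9.53% of all genes were, and without the swap array 19 genes were higher and 6 lower, against 25.6% and 26.3% of all genes.

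**Figure D1:**
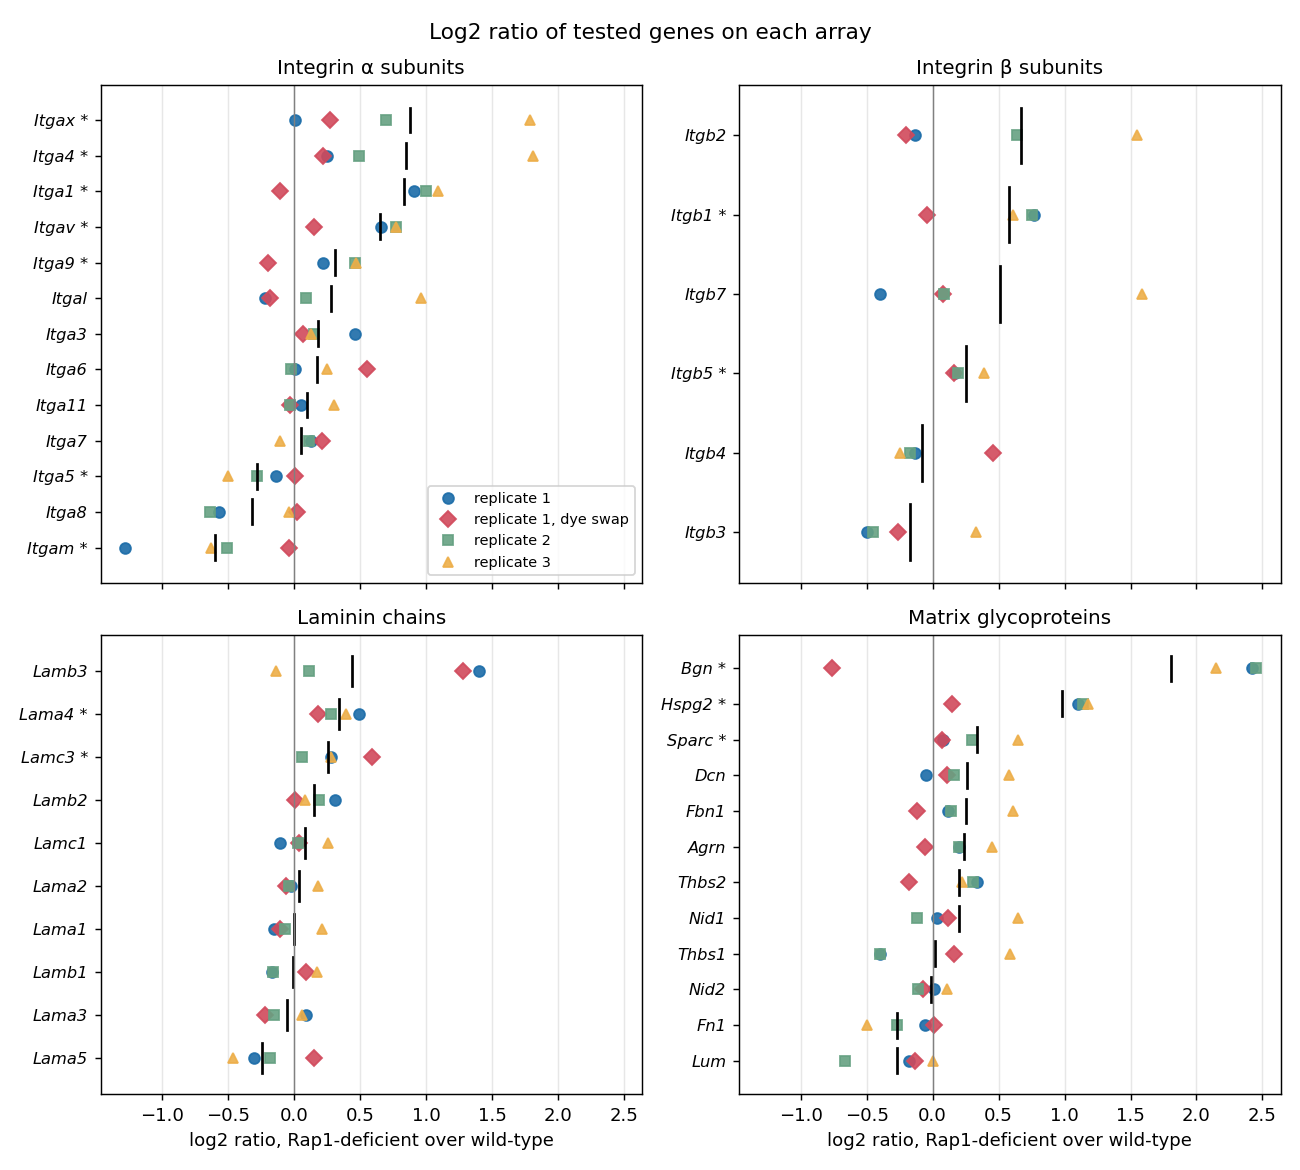
Log2 ratio (Rap1-deficient over wild-type, x axis) of tested genes on each of the 4 arrays, by role; symbols mark the arrays, the black bar is the log2 fold change over 3 pairs, and an asterisk marks the called genes. Bgn, Hspg2 and Itga1 had 3 arrays close together and the swap array far to the left, and the leukocyte subunits Itgax, Itga4, Itgb2 and Itgb7 had replicate 3 far to the right.

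The ratios differed between arrays. The median log2 ratio over the 42 genes was 0.04, 0.10 and 0.32 in replicates 1, 2 and 3 and 0.03 on the swap array. Replicate 3 thus lay highest, with 34 of 42 genes above 0, where 50.6% of all genes were. Ratios were above 0 on all 4 arrays for 11 of the genes, against 10.4% of all genes, and below 0 on all 4 for 1, *Itgam*, against 11.4%. On the swap array 25 of 42 were above 0, where 51.6% of all genes were. Of the 42 genes, 10 were called and kept their sign there, as were 13.5% of all genes. They were 10 of the 15 called genes, beside 1778 of 4496 called over all genes. Of the 42, 9 were called higher with a positive ratio on the swap array, as were 6.31% of all genes. They were 9 of the 13 called higher, beside 831 of 2376 over all genes. The channel levels of the genotypes did not overlap over the 4 arrays for 10 of the genes, among them *Hspg2*, *Itga3*, *Itga4*, *Itgam*, *Itgav*, *Itgb5*, *Lama4*, *Lamb2* and *Sparc*, against 11.3% of all genes.

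Among the integrins of adherent cells, *Itgb1*, *Itga1* and *Itgav* were higher in Rap1-deficient liver with and without the dye term. *Itgb1*, the shared beta subunit, had log2 ratios of 0.77, 0.75 and 0.61 in replicates 1, 2 and 3 and of -0.04 on the swap array. It was higher in Rap1-deficient liver by 0.58 ± 0.11 (log2 fold change, SE, adjusted p = 0.0415), and by 0.33 with the dye term (adjusted p = 0.125). Its levels were 9.95, 9.35, 10.09 and 9.86 in Rap1-deficient liver and 9.18, 9.39, 9.34 and 9.25 in wild-type liver (normalized log2 intensity on replicate 1, its dye swap, replicate 2 and replicate 3), so that the genotypes overlapped through the swap array. A second *Itgb1* probe was higher by 0.86 (adjusted p = 0.0402), with 0.10 on the swap array. *Itga1*, which pairs with *Itgb1* into a collagen receptor, had ratios of 0.91, 1.0 and 1.09 in replicates 1, 2 and 3 and of -0.11 on the swap array. It was higher by 0.83 ± 0.15 (SE, adjusted p = 0.0417), and by 0.45 with the dye term (adjusted p = 0.0785). Its second probe was higher by 0.40 (adjusted p = 0.0649), but not with the dye term (adjusted p = 0.208). *Itgav*, the alpha subunit of the vitronectin receptors, which can also release TGF-beta from its latent complex, had 0.66, 0.77 and 0.77 in replicates 1, 2 and 3 and 0.15 on the swap array. All 4 arrays lay above 0 for this gene, and its levels did not overlap. *Itgav* was higher by 0.65 ± 0.11 (SE, adjusted p = 0.0402), by 0.44 with the dye term (adjusted p = 0.0763), and by 0.33 on its second probe (adjusted p = 0.0646). That second probe passed the filter through Rap1-deficient liver alone, since 1 wild-type channel of 4 stood clear of background. It had 0.01 on the swap array and was not called with the dye term (adjusted p = 0.334).

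*Itgb5*, a beta partner of *Itgav*, had ratios of 0.17, 0.19 and 0.39 in replicates 1, 2 and 3 and of 0.16 on the swap array. Its levels were 12.44, 12.44, 12.44 and 12.65 in Rap1-deficient liver and 12.27, 12.28, 12.26 and 12.26 in wild-type liver, in the array order given for *Itgb1*, so a small difference of 0.25 ± 0.09 (SE, adjusted p = 0.127) came without overlap. It did not pass with the dye term (adjusted p = 0.286). *Itga9*, which binds tenascin and osteopontin as a partner of *Itgb1*, had 0.22, 0.46 and 0.47 in replicates 1, 2 and 3 and -0.20 on the swap array. It was called higher at 0.31 (adjusted p = 0.139), but the dye term left 0.09 (adjusted p = 0.628). *Itga5*, the alpha subunit of the classical fibronectin receptor, was called lower at -0.28 ± 0.11 (SE, adjusted p = 0.142), with -0.14, -0.28 and -0.50 in replicates 1, 2 and 3 and 0.01 on the swap array. Its call too was lost with the dye term (adjusted p = 0.48).

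The alpha subunits that bind laminin with *Itgb1*, and *Itgb4*, did not pass. *Itga3* was at 0.18 (adjusted p = 0.19), with all 4 arrays above 0 and levels that did not overlap. *Itga6* was at 0.17 (adjusted p = 0.278), and here the swap array was the highest, at 0.55, against -0.02 to 0.25 elsewhere. *Itga7*, known from muscle, was at 0.05 (adjusted p = 0.713), and *Itgb4*, the hemidesmosome partner of *Itga6*, was at -0.08 (adjusted p = 0.627). *Itga8*, a receptor subunit for nephronectin, had -0.57, -0.64 and -0.04 in replicates 1, 2 and 3 and 0.02 on the swap array (adjusted p = 0.156). *Itga11*, a collagen receptor subunit of fibroblasts, was at 0.10 (adjusted p = 0.537). *Itgb3*, the beta subunit of the platelet fibrinogen receptor and of a vitronectin receptor, was at -0.17 (adjusted p = 0.527), with replicate 3 at 0.33 and the other arrays at -0.50 to -0.26. In all, the 13 tested integrins outside the leukocyte subunits held 5 higher (38.5%) and 1 lower call (7.69%), beside 18% and 16.1% of all genes, with a median log2 fold change of 0.17. The dye term left 3 higher and 0 lower, beside 3.71% and 2.73% of all genes.

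**Figure D2:**
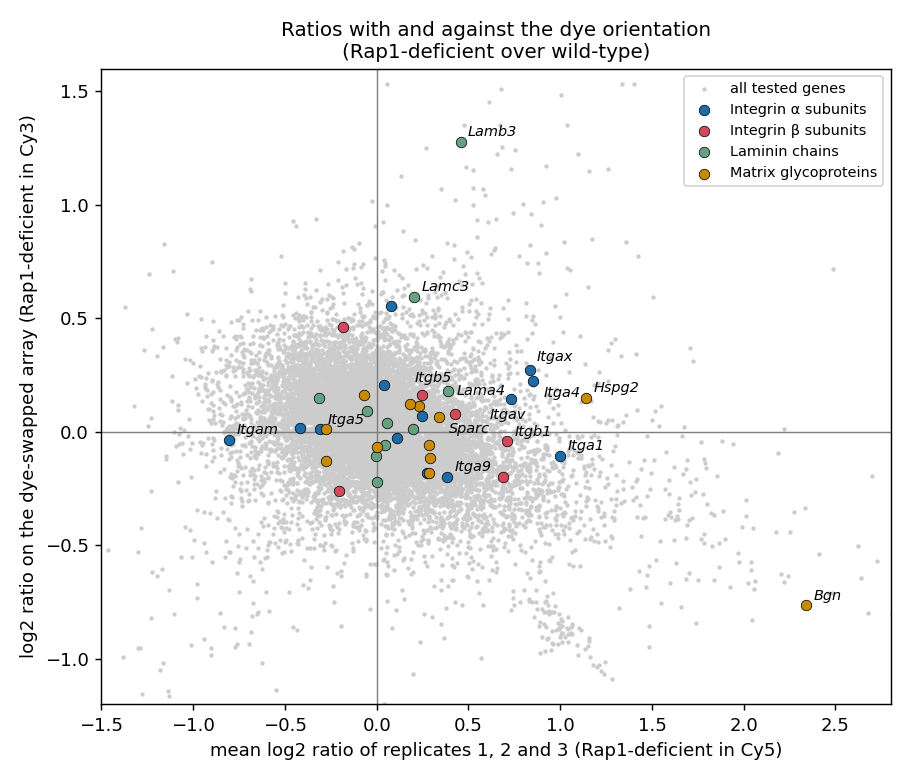
Mean log2 ratio of replicates 1, 2 and 3 (x axis) against the log2 ratio on the swap array (y axis), both Rap1-deficient over wild-type; coloured points are integrin, laminin and glycoprotein genes by role, grey points all 13167 tested genes, of which 36 lie outside the axes. Lamb3 and Lamc3 lie in the upper right, where both dye orientations give higher values, Hspg2, Itgav, Itga4 and Itgax lie just above the line at 0, and Bgn lies below it at -0.76.

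Leukocyte subunits spread widely between pairs. They are *Itgal*, *Itgam*, *Itgax* and *Itgad*, which pair with *Itgb2*, and *Itga4* and *Itgb7*, which steer lymphocytes to vessel walls, and this grouping was made after the values were seen. Their 6 tested members had medians of -0.18, 0.29 and 1.57 in replicates 1, 2 and 3 and of 0.02 on the swap array. *Itgax* (CD11c), carried by dendritic cells and macrophages, had ratios of 0.01, 0.70 and 1.79 in replicates 1, 2 and 3 and of 0.27 on the swap array. Its levels were 7.12, 7.55, 7.90 and 9.31 in Rap1-deficient liver and 7.11, 7.28, 7.20 and 7.52 in wild-type liver, in the same array order, and the genotypes overlapped. The call of 0.88 ± 0.30 (SE, adjusted p = 0.112) was lost with the dye term (adjusted p = 0.431). *Itga4* had 0.25, 0.49 and 1.81 in replicates 1, 2 and 3 and 0.22 on the swap array. It was called at 0.85 ± 0.31 (SE, adjusted p = 0.121), without overlap of levels, and not with the dye term (adjusted p = 0.414). Neither *Itgax* nor *Itga4* was called once replicate 3 was left out.

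*Itgb2*, *Itgb7* and *Itgal* did not pass, at 0.67 (adjusted p = 0.188), 0.51 (adjusted p = 0.339) and 0.28 (adjusted p = 0.417). Their ratios in replicate 3 were 1.55, 1.59 and 0.96, and on every other array none of the 3 was above 0.64. *Itgam* (CD11b), of macrophages and neutrophils, went the other way. On its representative probe it had -1.28, -0.51 and -0.63 in replicates 1, 2 and 3 and -0.04 on the swap array, and it was called lower at -0.60 ± 0.08 (SE, adjusted p = 0.0402), though not with the dye term (adjusted p = 0.264). The levels were 12.82, 13.72, 13.49 and 13.24 in Rap1-deficient liver and 14.10, 13.76, 14.00 and 13.87 in wild-type liver, in the same array order, and did not overlap. The other 2 tested *Itgam* probes did not pass, at 0.13 (adjusted p = 0.309) and -0.12 (adjusted p = 0.529). Both were dim, with mean levels of 6.69 and 6.45 in Rap1-deficient and 6.56 and 6.57 in wild-type liver. In wild-type liver each stood clear of background on 3 of 4 arrays. The lower call of *Itgam* thus rested on its representative probe, and the direction depended on the probe.

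Markers of Kupffer cells and neutrophils had the same pattern between arrays. In 5 of the 6 tested leukocyte subunits the ratio in replicate 3 lay more than 0.5 above every other array, a margin chosen after the values were seen, and so it did in 7 of 10 Kupffer cell markers and 3 of 4 neutrophil markers, against 4.93% of all genes. *Itgb3* and *Nid1* had that pattern too. *Marco*, a scavenger receptor of Kupffer cells, had 2.71 in replicate 3 and -0.98 to -0.000722 on the other arrays. The summed intensity of the 10 tested Kupffer markers was 26479 to 92123 in Rap1-deficient liver, with the highest sum in replicate 3, and 39955 to 42805 in wild-type liver. For 4 tested neutrophil markers it was 2530 to 9955 in Rap1-deficient liver and 3192 to 3845 in wild-type liver. Of the same list, *Mpo* was too dim to test and *Ly6g* had no named probe. Lymphocyte markers, 8 tested, summed to 11539 to 16940 in Rap1-deficient liver and 12320 to 13643 in wild-type liver. Of these 8, 2 (25%), *Cd3e* and *Cd3g*, were called higher, beside 18% of all genes. *Cd3g* passed the filter through Rap1-deficient liver alone, since 1 wild-type channel of 4 stood clear of background. Neither was called with the dye term, and *Cd79b* was (adjusted p = 0.105). None of the Kupffer or neutrophil markers was called higher and 1, *Vsig4*, was called lower, beside 18% and 16.1% of all genes. The part of these cells in the integrin values was not tested.

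**Figure D3:**
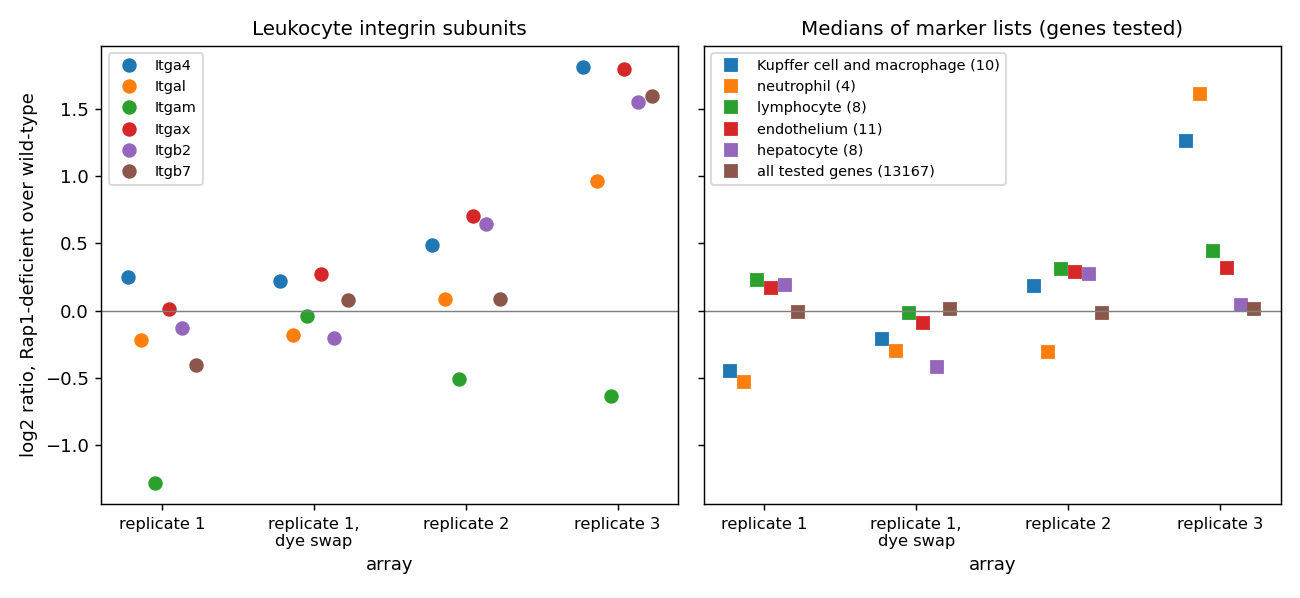
Left, log2 ratio (Rap1-deficient over wild-type, y axis) of the 6 tested leukocyte integrin subunits on each of the 4 arrays. Right, the median log2 ratio of marker lists of liver cell types and of all tested genes on the same arrays, with the number of genes in parentheses. In replicate 3 the subunits other than Itgam lie between 0.96 and 1.81, and the Kupffer and neutrophil medians at 1.26 and 1.61.

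Among the laminin chains, *Lamb3* differed most between pairs. It belongs to the laminin of epithelial anchoring, as does *Lama3*. *Lamb3* had 1.4 on replicate 1 and 1.28 on its dye swap, but 0.11 and -0.14 in replicates 2 and 3, and did not pass (0.44 ± 0.29, SE, adjusted p = 0.328). Its Rap1-deficient level was thus high in 1 pair, in both dyes, at 8.85 and 8.56, against 7.55 and 7.25 in the other pairs and 7.28 to 7.46 in wild-type liver. *Lama3* was at -0.05 (adjusted p = 0.704).

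*Lamb3* was the only one of the 42 genes with both arrays of replicate 1 more than 0.5 above replicates 2 and 3, a pattern of 0.79% of all genes. It was shared by *Cidec* and *Retn*, the adipocyte markers that could be tested, with 1.53 and 1.25 on replicate 1, 1.16 and 1.35 on its dye swap, and 0.07 to 0.43 in the other pairs. The B cell marker *Ms4a1* had it too. The summed intensity of *Cidec* and *Retn* was 207 to 586 in Rap1-deficient liver and 184 to 221 in wild-type liver, while *Adipoq*, *Plin1* and *Lep*, which define fat cells, were too dim to test. Of the cholangiocyte markers *Krt19* was higher by 0.38 (adjusted p = 0.052), and the median of the 6 tested was 0.26. Whether other cells in the sampled tissue had a part in *Lamb3* was not tested.

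*Lama4*, the alpha chain of vessel basement membranes, had 0.49, 0.28 and 0.39 in replicates 1, 2 and 3 and 0.18 on the swap array. Its levels were 8.14, 7.90, 7.95 and 7.96 in Rap1-deficient liver and 7.65, 7.73, 7.67 and 7.57 in wild-type liver, and did not overlap. *Lama4* was higher by 0.34 ± 0.08 (SE, adjusted p = 0.0604), and just missed the threshold with the dye term (0.28, adjusted p = 0.172). *Lamc3* had 0.28, 0.06 and 0.28 in replicates 1, 2 and 3 and 0.59 on the swap array. It was called at 0.26 ± 0.10 (SE, adjusted p = 0.146), close to the limit, and at 0.40 with the dye term (adjusted p = 0.107). The chains of the common basement membrane laminins did not pass and had small values. *Lamb2* was at 0.15 (adjusted p = 0.267), with levels that did not overlap, *Lamc1* at 0.08 (adjusted p = 0.568) and *Lamb1* at -0.01 (adjusted p = 0.953). *Lama1* was at 0.00262 (adjusted p = 0.989), *Lama2* at 0.04 (adjusted p = 0.801) and *Lama5* at -0.24 (adjusted p = 0.175).

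Of the glycoproteins, *Bgn* and *Hspg2* had the largest changes. *Bgn* encodes biglycan, a small proteoglycan that binds collagen fibres and TGF-beta. It had 2.42, 2.45 and 2.15 in replicates 1, 2 and 3, but -0.76 on the swap array. Its levels were 10.13, 8.37, 9.97 and 9.65 in Rap1-deficient liver and 7.71, 9.13, 7.53 and 7.50 in wild-type liver, in the array order given above, so that with either genotype the Cy5 label was the brighter one. The call of 1.81 ± 0.31 (SE, adjusted p = 0.0402) came down to 0.79 with the dye term (adjusted p = 0.0413), and its size depended on the fit. *Hspg2* encodes perlecan, the large heparan sulfate proteoglycan of basement membranes. It had 1.10, 1.14 and 1.18 in replicates 1, 2 and 3 and 0.15 on the swap array. The levels were 9.95, 9.99, 10.02 and 10.04 in Rap1-deficient liver and 8.85, 9.84, 8.87 and 8.86 in wild-type liver, which did not overlap, though the wild-type level in Cy5 came close. *Hspg2* was higher by 0.98 ± 0.13 (SE, adjusted p = 0.0402), a 1.98-fold difference, and by 0.65 with the dye term (adjusted p = 0.0408).

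*Sparc*, a collagen-binding protein of remodelling matrix, had 0.08, 0.30 and 0.65 in replicates 1, 2 and 3 and 0.07 on the swap array. It was called at 0.34 ± 0.13 (SE, adjusted p = 0.133), and neither its second probe (-0.09, adjusted p = 0.622) nor the dye term (adjusted p = 0.448) gave a call. The other 9 glycoproteins did not pass. *Fn1*, the fibronectin that hepatocytes make in quantity, had -0.06, -0.27 and -0.50 in replicates 1, 2 and 3 and 0.01 on the swap array (adjusted p = 0.172). *Fn1* and *Itga5*, a subunit of its receptor, thus had nearly equal ratios on the 4 arrays. *Dcn* and *Lum*, small proteoglycans that space collagen fibrils, were at 0.26 (adjusted p = 0.217) and -0.27 (adjusted p = 0.246). *Nid1* and *Nid2*, which link laminin to type IV collagen, were at 0.20 (adjusted p = 0.418) and -0.01 (adjusted p = 0.951). *Agrn*, another basement membrane proteoglycan, was at 0.24 (adjusted p = 0.168), and *Fbn1*, the microfibril protein, at 0.25 (adjusted p = 0.252). *Thbs1* and *Thbs2*, matricellular proteins that bind several integrins, were at 0.02 (adjusted p = 0.94) and 0.20 (adjusted p = 0.179). In replicate 3, 11 of the 12 glycoproteins had positive ratios, with a median ratio of 0.58, where the swap array had a median of -0.02.

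**Figure D4:**
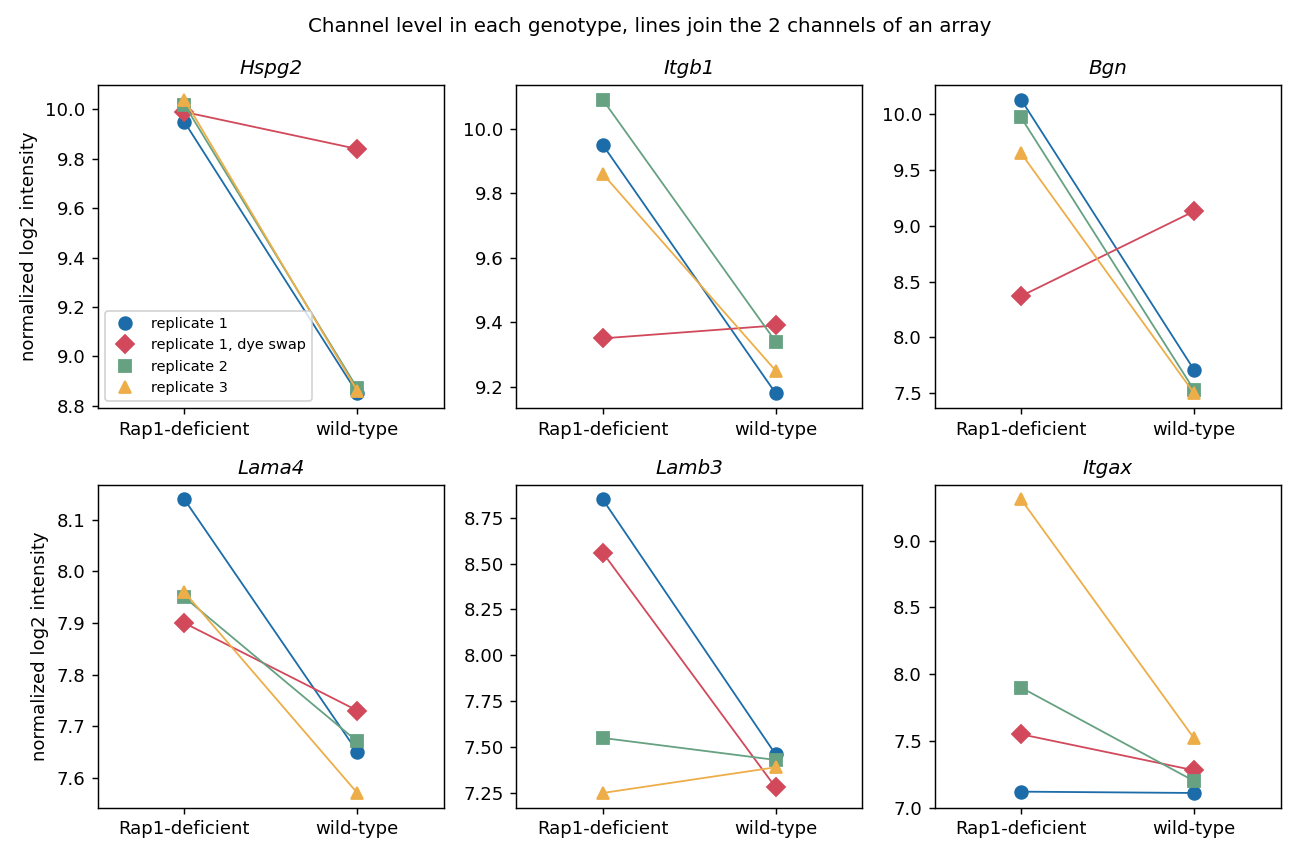
Normalized log2 intensity (y axis) of Hspg2, Itgb1, Bgn, Lama4, Lamb3 and Itgax in Rap1-deficient and wild-type liver, with a line joining both channels of an array. Hspg2 and Lama4 are higher in Rap1-deficient liver on all 4 arrays, Bgn and Itgb1 on 3 of 4, Lamb3 is high in Rap1-deficient liver on the arrays of replicate 1 alone, and Itgax is highest there in replicate 3.

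The cell types that make or wear these proteins were also read from markers. Of 11 endothelial markers 5 were called higher (45.5%) and 0 lower, beside 18% and 16.1% of all genes. Among the 5 were *Kdr* at 1.30 (adjusted p = 0.0425) and *Cdh5* at 0.97 (adjusted p = 0.0426), with ratios of -0.35 and -0.02 on the swap array. Both were kept with the dye term (adjusted p = 0.057 for *Kdr* and 0.0963 for *Cdh5*). They were the 2 of the list still called, where 3.71% of all genes were called higher. The 6 that did not pass lay between -0.28 (*Flt1*) and 0.17, among them *Stab1*, *Stab2*, *Lyve1* and *Clec4g*. The summed intensity of the endothelial list was 18820 to 21241 in Rap1-deficient liver and 16428 to 19800 in wild-type liver. On the swap array the wild-type sum was the larger, 19800 against 18820. The list of stellate cells and fibroblasts had 14 tested genes, with *Cygb*, *Col1a2* and *Dpt* (3) higher and *Hand2* (1) lower. These were 21.4% and 7.14%, beside 18% and 16.1% of all genes. *Dpt* passed the filter through Rap1-deficient liver alone, and with probes required in both genotypes 2 of 11 were higher, where 17.2% of all genes were. Of the 14, 0 were called with the dye term in limma (1 with an unadjusted p under 0.05), where 6.44% of all genes were. Their sums were 6074 to 11367 in Rap1-deficient liver, highest in replicate 3, and 5950 to 6259 in wild-type liver. Hepatocyte markers, all 8 of which passed the filter, had a median log2 fold change of 0.04, with medians of 0.19, 0.27 and 0.04 in replicates 1, 2 and 3 and of -0.42 on the swap array. Platelet markers, 3 tested, had sums of 480 to 1008 in Rap1-deficient liver, with the highest in replicate 3 as for *Itgb3*, and 528 to 534 in wild-type liver, and mesothelial markers, 2 tested, had sums of 228 to 282 in Rap1-deficient liver and 214 to 236 in wild-type liver. What these cells contributed to the matrix genes was not tested.

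Inside the cell, integrins join actin through an adhesion machinery of adaptors and kinases. Of 32 tested genes of that list 8 were higher (25%) and 4 lower (12.5%), with a median of 0.09, beside 18% and 16.1% of all genes. Of the 32, 0 were called with the dye term in limma (4 with an unadjusted p under 0.05), where 6.44% of all genes were. *Vcl* (vinculin), which links talin to actin, was higher by 0.65 (adjusted p = 0.0428), with -0.29 on the swap array, and *Tns3*, a tensin, by 0.47 (adjusted p = 0.0616), with -0.33 there. *Fermt2*, the kindlin that activates integrins in adherent cells, was lower at -0.50 (adjusted p = 0.0533), with -0.04 on the swap array. *Lims1*, an adaptor partner of integrin-linked kinase, was higher by 0.42 (adjusted p = 0.076), with 0.38 on the swap array. With the dye term these 4 had adjusted p-values of 0.159 to 0.347. *Rap1a*, given here for its name, was lower at -0.28 (adjusted p = 0.142) and had 0.23 on the swap array.

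Other matrix proteins and receptors, 40 tested, held 12 higher (30%) and 3 lower calls (7.5%), with a median of 0.19, beside 18% and 16.1% of all genes. With the dye term 3 were higher and 2 lower, against 3.71% and 2.73% of all genes. *Gpc4*, a glypican, was higher by 1.02 (adjusted p = 0.0402), with -0.31 on the swap array and a dye-term adjusted p = 0.115. *Postn*, a matricellular ligand of *Itgav* receptors, was lower at -0.88 (adjusted p = 0.0402), with 0.13 there and a dye-term adjusted p = 0.0777. *Dag1*, the dystroglycan that binds laminins, agrin and perlecan, was higher by 0.73 (adjusted p = 0.0402), with a ratio of 0.14 on the swap array and a dye-term adjusted p = 0.0603. *Ltbp3*, which holds latent TGF-beta in the matrix, was higher by 0.59 (adjusted p = 0.0402), with 0.06 there, and not with the dye term (adjusted p = 0.19).

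Of 34 matrix turnover genes 8 were higher (23.5%) and 3 lower (8.82%), with a median of 0.12, beside the same 18% and 16.1%. With the dye term 2 were higher and 2 lower, where 3.71% and 2.73% of all genes were. *Timp2*, an inhibitor of matrix metalloproteinases, was positive on every array (0.74, 0.60 and 0.81 in replicates 1, 2 and 3 and 0.58 on the swap array, adjusted p = 0.0402, and 0.0472 with the dye term). *Mmp14*, a membrane-bound metalloproteinase, was higher by 0.60 (adjusted p = 0.0403), with -0.27 on the swap array, and not with the dye term (adjusted p = 0.246). *Adam17*, a sheddase of membrane proteins, was lower at -0.54 (adjusted p = 0.0431), with -0.07 on the swap array and a dye-term adjusted p = 0.116. *Timp3* was higher by 0.51 (adjusted p = 0.0432), with 0.17 there and a dye-term adjusted p = 0.112. Of 19 tested collagens 5 were higher (26.3%) and 2 lower (10.5%), with a median of 0.22, beside 18% and 16.1% of all genes. With the dye term 1 was higher and 0 lower, beside 3.71% and 2.73% of all genes. The type IV chains of basement membranes were called in both directions. *Col4a2* was higher by 0.55 (adjusted p = 0.0481), with -0.07 on the swap array, and *Col4a4* and *Col4a6* were lower at -0.44 (adjusted p = 0.0545) and -0.27 (adjusted p = 0.119), with 0.09 and 0.02 there. None of these 3 was called with the dye term (adjusted p = 0.152 to 0.403). *Col5a3* was higher by 0.72 (adjusted p = 0.0402), with 0.57 on the swap array and a dye-term adjusted p = 0.0833. *Col1a2* was higher by 1.13 (adjusted p = 0.0951), with 2.27 in replicate 3 against 0.21 to 0.69 on the other arrays, and not with the dye term (adjusted p = 0.337).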

How the data were processed

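Scans were read by the authors with Agilent Feature Extraction (10.7.3.1 per the file headers, while the paper names another version). The deposited intensities are median spot and local background values of both dyes, with the software's processed intensities and a deposited log10 ratio of Cy5 over Cy3. Also deposited was a table of log2 ratios, 1 per probe and array, credited to limma in the processing notes, and comparison with the scans showed its dye-swapped column turned already. How its background was corrected is not stated in these sources.

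Median intensities were background-corrected (normexp, offset 50) and loess-normalized within arrays in limma 3.58.1 (R 4.3.3), controls at weight 0. Spots with an outlier flag were left out, repeated spots averaged, and the dye swap, numbered 1 in its label, turned and averaged with replicate 1, which left 3 pairs. All 4 arrays lay on 1 slide, and no spot outside the controls was saturated. RNA integrity numbers are labelled 6.6 to 8.7 over all samples. Of 55681 probes, 27513 had at least 0.5 of their spots well above background on every array in 1 genotype or both and were tested with lmFit and eBayes (Benjamini-Hochberg, FDR under 0.15, as in the paper). Channel levels were quantile-normalized between arrays on mean intensity. Names came by accession from RefSeq (GRCm38.p6) for 26056 probes (46.8%), and 29625 stayed unnamed. The members, marker and pathway lists and tests were chosen with earlier results of these data known. Members are named in the text except for a gene not reported here, which stays in the counts, and pathway lists name up to 4 genes of smallest p. On simulated data of 27513 probes with 200 changed, 68% of log2 changes of 1 and 95% of those of 2 were recovered, with 27 false calls. The simulated errors were independent between probes and held no dye effect, so these 27 do not measure false calls in the real data. Alternatives changed the background correction, normalization, spot values, filter, dye handling, replicates, threshold and probe. The number of arrays limits the precision.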

Additional observations from a re-analysis of the deposited data

Results flagged for a closer look

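In 6 of the 42 genes, 1 of the 4 arrays stood apart from the other 3, with a gap to its nearest neighbour above Dixon's critical share of the whole range. Chance alone marks about 1 in 20 groups of 4 like values. These 4 arrays are not alike, since the swap array had the dyes swapped and stood apart over all tested probes. That rate is thus no yardstick for the 6, and the check covered these 42 genes only. In 4 of the 6 it was the swap array, with log2 ratios (Rap1-deficient over wild-type) of -0.76 for *Bgn*, 0.15 for *Hspg2*, -0.11 for *Itga1* and 0.46 for *Itgb4*. *Bgn*, *Hspg2* and *Itga1* were called higher, with and without the dye term, and *Itgb4* was not called. In the other 2 genes it was replicate 3, with 1.81 for *Itga4* and 0.39 for *Itgb5*, and neither was called without that replicate.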

How the results depend on the processing

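The count of 13 higher and 2 lower genes among the 42 rested on few pairs. Leaving out a replicate gave 0 to 18 higher and 0 to 4 lower genes (the most without replicate 1, where 23.4% and 22.8% of all genes were called). Without replicate 2 none was called in limma (10 with an unadjusted p under 0.05), where 0.0304% of all genes were. Without replicate 3 there were 5 higher genes (5.59% of all genes). With the dye term 7 were higher and 0 lower (3.71% and 2.73% of all genes). Counting the swap array as a replicate by itself, 0 were higher and 0 lower in limma (11 with an unadjusted p under 0.05), where 0.342% of all genes were called. Without that array 19 were higher and 6 lower (25.6% and 26.3% of all genes). The authors' value table gave 9 higher and 6 lower (14% and 23.4% of all genes), beside 13 and 2 in the text. With no filter 1 was lower (9.92% of all genes). The dimmest probe of each gene also gave 1 lower and turned *Sparc* to -0.09. An FDR under 0.05 left 5 higher and 1 lower (5.03% and 3.37% of all genes). Median centring gave 1 lower (3.66% of all genes) and a median of 0.36 over the 42 genes, and the median over all genes was 0.16, against 0.00489 with loess. *Bgn*, *Hspg2*, *Itga1*, *Itgav* and *Itgb1* passed in 13 of 15 alternatives. The causes of these shifts were not tested. Each ratio compares both channels of 1 array, so the genotypes are paired by array. Whether the animals were paired cannot be told, since the labels do not say if each array carried another wild-type liver.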
